A study of Mus musculus with 4 samples.

Results

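The Prrc2 family consists of 3 paralogous genes in the mouse, Prrc2a, Prrc2b and Prrc2c, and the positions of N6-methyladenosine (m6A) on their own mRNAs were examined in brain. All peaks of an antibody-based m6A map that touch an exon of these genes in the GENCODE M21 annotation (genome build mm10) were taken, whatever their strength, so that no measured value entered the choice. They are 3 of the 21866 protein-coding genes of the annotation and held 28 of the 38533 peaks called in replicate 1, 31 of the 30134 called in replicate 2, and 24 of the 23901 shared intervals. A shared interval is a stretch that both replicates called, that is, the bases where peaks of the 2 lists overlap by at least 1 bp. No other gene has an exon under any of these peaks.

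The map was made from whole brain of mice aged 4 weeks, strain C57BL/6J. The series describes the animals as Prrc2a flox/flox, that is, with sites for Cre recombinase placed at Prrc2a on both chromosomes, and no Cre driver is named for these samples. The 2 m6A immunoprecipitation (IP) samples and the 2 input samples, which are RNA not passed over the antibody, shared strain, age and tissue in their labels, which do not repeat the floxed genotype, and there was no contrast between genotypes. Where the Cre sites lie relative to the Prrc2a peaks was not analysed here. The labels do not say whether an RNA sample came from 1 brain or from several, and in whole brain a peak cannot be assigned to a cell type. The only measurement for each peak was its fold enrichment, the ratio of IP over input. Neither read counts nor depth were in the peak lists, so no counting interval was computed and every value below rests on 2 replicates. Peaks were present over genes known for neurons (6 of 6 listed genes in replicate 1 and 5 of 6 in replicate 2), oligodendrocytes and their precursors (6 of 6 in each), astrocytes (4 of 4) and microglia (4 of 4), and over 1 of 6 genes known for other organs, the cardiac myosin gene Myh6.

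Prrc2 proteins (proline-rich coiled-coil 2) are large, mostly unstructured cytoplasmic proteins that bind RNA and are found with ribosomes and in stress granules. In the study that produced the map, Prrc2a was examined as an m6A reader, a protein that binds methylated RNA. The methyl mark itself is written while RNA is being made, by a complex with METTL3 and METTL14 at its core, on an adenosine that usually lies within GGAC or a related motif. It is known to gather in long internal exons and around stop codons, and to be sparse in short internal exons, where the complex left at exon junctions keeps the writer away.

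The 3 genes have the same layout, in which a very long coding exon sits amid many short ones. Prrc2a (ENSMUSG00000024393.14) lies at chr17:35149076-35164897 on the minus strand, Prrc2b (ENSMUSG00000039262.16) at chr2:32151082-32234537 on the plus strand, and Prrc2c (ENSMUSG00000040225.15) at chr1:162670725-162740556 on the minus strand. In 1 representative transcript each, that with the longest coding sequence (CDS), Prrc2a had 31 exons in 6888 nt of mRNA, Prrc2b 32 exons in 10671 nt and Prrc2c 35 exons in 11502 nt. In each gene exon 16 was the longest internal exon, with 1842 nt in Prrc2a, 2061 nt in Prrc2b and 2253 nt in Prrc2c, whereas the median exon had 152 nt, 151 nt and 166 nt. The genes differed in their 3′ ends. The 3′ UTR had 185 nt in Prrc2a, 3780 nt in Prrc2b and 2675 nt in Prrc2c, and the last exon had 326 nt, 3912 nt and 2930 nt.

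All 3 mRNAs carried m6A peaks in both replicates, as did 45.4% of all protein-coding genes. Prrc2a had 7 peaks in replicate 1 and 12 in replicate 2, giving 9 shared intervals. Prrc2b had 10 and 12 peaks and 9 shared intervals, and Prrc2c had 11 and 7 peaks and 6 shared intervals. The 9936 genes with a shared interval had a median of 2 each (quartiles 1 and 3). The paralogs thus held more intervals than most of these genes, with 98.8% of them below Prrc2a and Prrc2b and 94.5% below Prrc2c, but their mRNAs were also longer than the median of 3334 nt (upper quartile 4869 nt). Per kb of mRNA the numbers were 1.31 in Prrc2a, 0.843 in Prrc2b and 0.522 in Prrc2c, compared with a median of 0.583 (quartiles 0.358 and 0.945). On this scale Prrc2c lay below the median gene, Prrc2b above it and Prrc2a above the upper quartile. The counts of intervals depended on the rule. With overlap of at least 50% of both peaks they were 4 in Prrc2a, 6 in Prrc2b and 6 in Prrc2c. At a fold enrichment of at least 2 they were 4, 5 and 6, so that Prrc2a had the fewest under each of these rules.

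Prrc2a was the most widely covered of the 3 over the whole mRNA. Peaks lay over 48.0% of its mRNA bases in replicate 1 and 70.8% in replicate 2, over 29.2% and 40.3% in Prrc2b, and over 42% and 33.1% in Prrc2c. Over the whole mRNA, which includes the 3′ UTR that is short in Prrc2a, this gene was therefore highest in each replicate. Over the CDS alone, coverage was 48.6% and 70.7% in Prrc2a, 34.1% and 53.5% in Prrc2b, and 55.1% and 42.9% in Prrc2c. There Prrc2c was highest in replicate 1 and Prrc2a in replicate 2. Prrc2b and Prrc2c exchanged places between the replicates and were not distinguishable beyond that spread. Shared intervals covered 46.9% of the Prrc2a mRNA, 27.1% of Prrc2b and 31.2% of Prrc2c, against a median of 18.2% (quartiles 9.7% and 31.1%) over the genes with a shared interval. At the gene level, 91.2% of those genes had a lower value than Prrc2a, 75% a lower value than Prrc2c and 68.9% a lower value than Prrc2b. Prrc2a also led among peaks of fold enrichment of at least 2, with 35.7% against 20.7% in Prrc2b and 31.2% in Prrc2c. When overlap had to reach 50% of both peaks, 26.5% of Prrc2a, 13.2% of Prrc2b and 31.2% of Prrc2c remained in shared intervals, so that Prrc2c was highest. No test between the paralogs was made, as each had a single value in each of 2 replicates, and peaks of 1 mRNA are not replicates. A peak also needs expression of the gene, which was not measured here. The paper reports higher expression of Prrc2a than of Prrc2c in all neural cell types of a published database. Coverage and missing peaks were not corrected for expression.

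**Figure D1:**
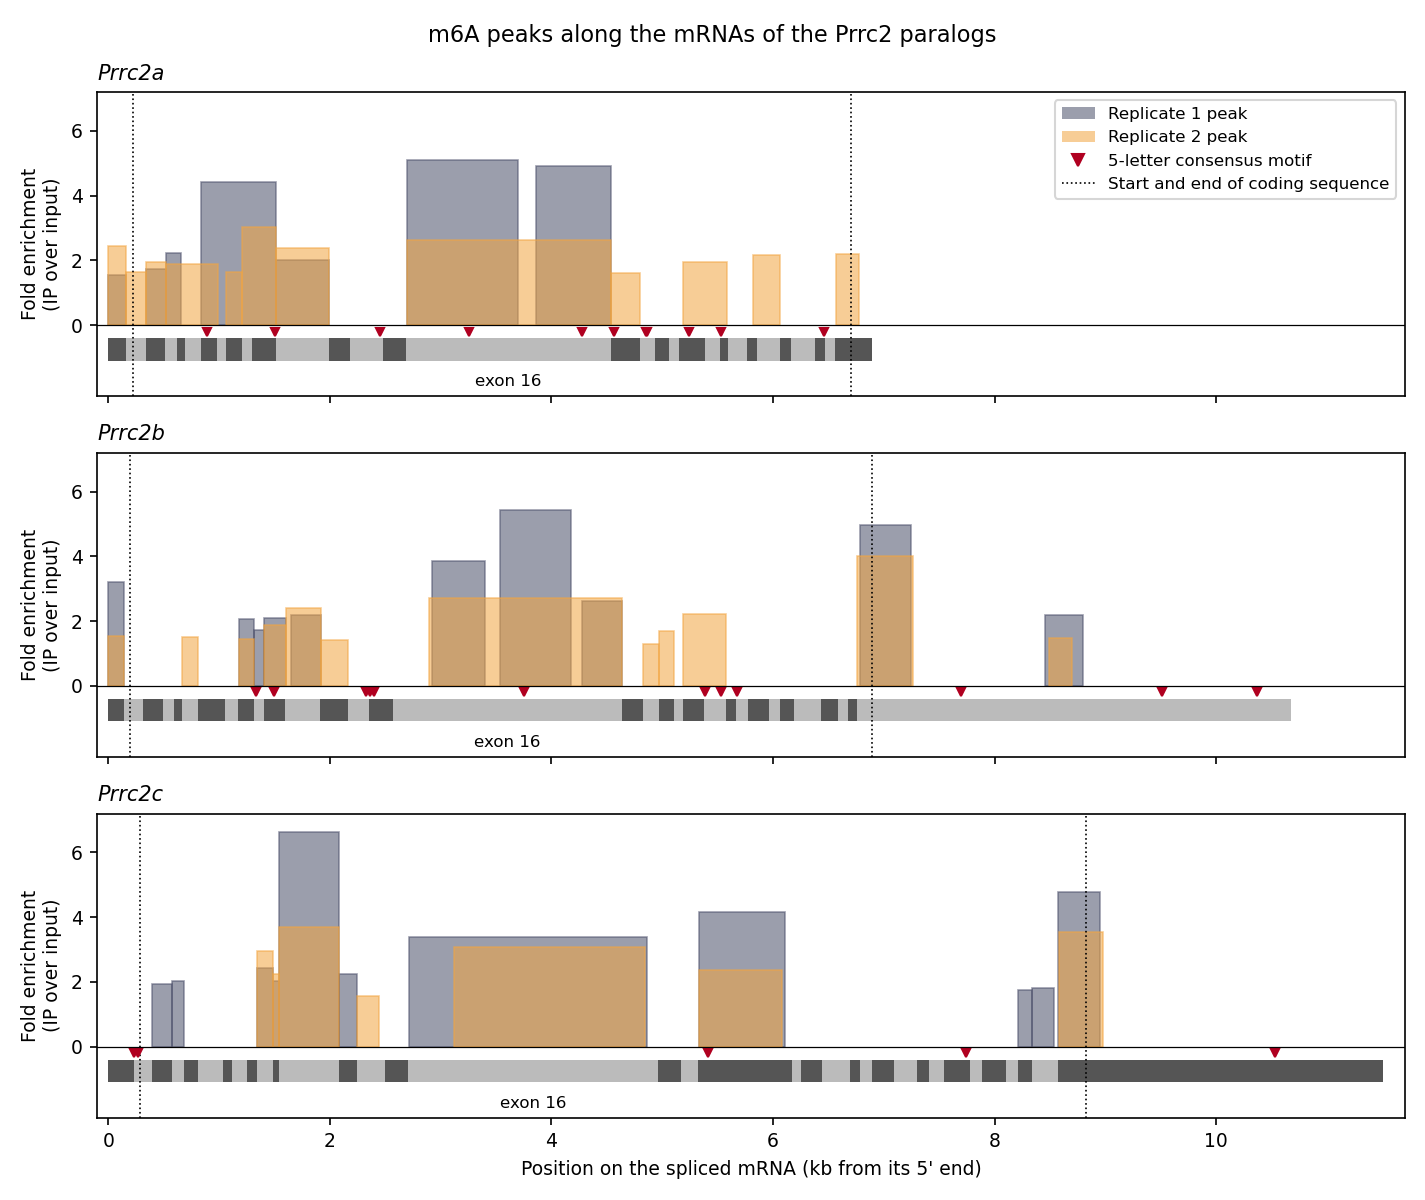
Peaks along the spliced mRNAs of Prrc2a, Prrc2b and Prrc2c, with the position from the 5′ end in kb on the x axis and fold enrichment of IP over input on the y axis, for replicate 1 (grey-blue) and replicate 2 (orange). The lower bars show exons in alternating shades, red triangles the 5-letter consensus motif and dotted lines the ends of the coding sequence. The long exon 16 is under peaks of both replicates in each gene, and Prrc2a and Prrc2b have no replicate 1 peak between exon 16 and the last exon.

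Exon 16 was under peaks of both replicates in all 3 mRNAs. In Prrc2a it was within peaks for 91.0% of its bases in replicate 1 and 100% in replicate 2, in Prrc2b for 72.1% and 84.6%, and in Prrc2c for 95.4% and 76.3%. In every gene and each replicate this was the most covered of 4 sections of the mRNA (exons before exon 16, exon 16, exons after it, and the last exon). The exons ahead of it were within peaks for 60.7% and 70.9% of their bases in Prrc2a, 32.6% and 45.7% in Prrc2b, and 44% and 34.9% in Prrc2c. Exon 16 is wholly coding in all 3 genes. Within the section ahead of it, the shorter exon 12 was covered more by shared intervals, for 100%, 85.4% and 100% of its bases in Prrc2a, Prrc2b and Prrc2c. For exon 16 these shares were 91%, 72.1% and 76.3%.

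The peaks in exon 16 were broken in replicate 1 and continuous in replicate 2 for Prrc2a and Prrc2b. In Prrc2a, replicate 1 had peaks at chr17:35156202-35157207 and chr17:35155310-35156035 with fold enrichments of 5.11 and 4.92, where replicate 2 had a single peak of 1893 nt with 2.64. In Prrc2b, replicate 1 had 3 peaks with 3.86 (chr2:32213232-32213715), 5.44 (chr2:32213851-32214492) and 2.63 (chr2:32214588-32214978), where replicate 2 had a single peak of 1767 nt with 2.71. In Prrc2c, a single peak of 2150 nt with 3.39 in replicate 1 met a single peak of 1719 nt with 3.07 in replicate 2. Because of the splitting, no exon 16 pair of Prrc2b reached an overlap of 50% of both peaks, and under that rule 4 of the 5 exons of 1000 nt and over in the family held a shared interval. The highest replicate 1 value of exon 16 was above the replicate 2 value in each gene. Over all peaks of the lists the median fold enrichment was 2.88 in replicate 1 and 2.2 in replicate 2, so values were read by their place in their own list. The strongest exon 16 peak stood above 90.4% of replicate 1 peaks in Prrc2a, above 92.9% in Prrc2b and above 63.5% in Prrc2c, and in replicate 2 above 69.1%, 71.4% and 81.7%. The order of the paralogs by exon 16 was therefore turned between the replicates, with Prrc2c last in replicate 1 and first in replicate 2.

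The sites that could carry the mark in these exon 16 peaks were read from the mRNA. GGACT, the consensus given in the study, was searched on the transcript's strand only and is shown in capitals with 10 bases on either side. Prrc2a had 2 such sites in exon 16 and Prrc2b had 1, all of them inside shared intervals, and Prrc2c had none.
Prrc2a, exon 16, A at chr17 position 35156644, minus strand: ggcttcggcgGGACTattcctatga
Prrc2a, exon 16, A at chr17 position 35155628, minus strand: aaagctgtggGGACTcctggggcca
Prrc2b, exon 16, A at chr2 position 32214068, plus strand: gtgccctgaaGGACTcatggcgctc
The shared interval of Prrc2c in exon 16 covered 1719 nt without a GGACT, although 83.7% of windows of this length, taken over all representative mRNAs with a shared interval, hold at least 1. The whole Prrc2c mRNA was poor in this motif, with 0.435 GGACT per kb against 1.11 over those mRNAs. The Prrc2c interval had 6 GGAC, a core that every GGACT contains and that 99.4% of windows of its length hold. Exon 16 as a whole had 10 GGAC in Prrc2a, 15 in Prrc2b and 8 in Prrc2c, and 10, 12 and 6 of them lay in shared intervals.

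Exons 11, 12 and 16 held a shared interval in all 3 genes. By protein alignment, exons 12 and 16 correspond to each other across the family, while exons 11 of Prrc2a and Prrc2b aligned mostly with exon 10 of Prrc2c, and the 54 nt of Prrc2c exon 11 with a part of exon 11 in both. Prrc2a exon 12 (478 nt) was covered exactly from its first to its last base by a peak in both replicates (chr17:35158936-35159413), with fold enrichments of 2.00 and 2.38. Prrc2b exon 12 (316 nt) had peaks with 2.18 and 2.39, which shared 85.4% of its bases. Prrc2c exon 12 (547 nt) was wholly covered in both replicates, with 6.62 at chr1:162710200-162710829 and 3.69 at chr1:162710220-162710829. This was the strongest Prrc2c peak in each replicate, above 97.6% of the replicate 1 list and 92.4% of the replicate 2 list. In Prrc2a and Prrc2b the exon 12 peak was moderate, above 20.6% and 27.0% of replicate 1 peaks and 58.2% and 58.8% of replicate 2 peaks. Neither GGACT nor GGAC occurred in the interval of Prrc2c exon 12 or of Prrc2a exon 12, although 86.3% and 83.1% of mRNA windows of those lengths contain a GGAC. The whole mRNAs had 3.22 GGAC per kb in Prrc2c and 5.23 in Prrc2a, against 4.3 over all mRNAs with a shared interval.

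The stop codon separated Prrc2a from its paralogs in replicate 1. A stop codon lies within a shared interval in 51.4% of the genes with one, and did so in Prrc2b and Prrc2c but not in Prrc2a. In Prrc2b the peak had fold enrichments of 4.97 (chr2:32230639-32231091) and 4.01 (chr2:32230507-32231113), above 89.2% and 95.4% of the lists. It was the strongest Prrc2b peak in replicate 2 and, by the lower of both values, the strongest matched pair of that gene. In Prrc2c the peak had 4.79 (chr1:162673280-162673664) and 3.53 (chr1:162673253-162673646), above 87.5% and 90.3% of the lists. Prrc2a had no peak there in replicate 1, and in replicate 2 a peak at chr17:35149188-35149439 with 2.21. The 2 replicates thus disagreed for Prrc2a, and a difference from the paralogs at the stop codon was present in replicate 1 alone.

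The shared intervals at the stop codon sat differently around it. That of Prrc2b, 453 nt long, began 101 nt ahead of the stop codon and ended 349 nt past it, so that most of it was 3′ UTR. That of Prrc2c, 367 nt long, began 242 nt ahead and ended 122 nt past it, so that most of it was CDS. Of mRNA windows of those lengths, 38.7% and 32.7% hold a GGACT, and 81.6% and 75.4% a GGAC. Neither interval held a GGACT. Each held GGAC, 4 times in Prrc2b, all in the 3′ UTR, and 2 times in Prrc2c, both in the CDS, shown here in capitals because they are the only matches to the core under these strong peaks.
Prrc2b, exon 32, A at chr2 position 32230776, plus strand: cacctaacagGGACggtgcgcccc
Prrc2b, exon 32, A at chr2 position 32230824, plus strand: acaccagcctGGACagccaccgcc
Prrc2b, exon 32, A at chr2 position 32230844, plus strand: cgcctggcttGGACagagctctct
Prrc2b, exon 32, A at chr2 position 32230908, plus strand: cctgcatcgtGGACatgtggcttt
Prrc2c, exon 35, A at chr1 position 162673562, minus strand: cccagagagtGGACagtgatacaa
Prrc2c, exon 35, A at chr1 position 162673447, minus strand: tgttagaactGGACcaatcaaacc
Beyond the stop codon the long 3′ UTRs were nearly free of peaks. Prrc2b had 1 further shared interval of 210 nt, which ended 1806 nt past the stop codon, with fold enrichments of 2.2 and 1.48. Shared intervals covered 14.8% of the Prrc2b 3′ UTR and 4.56% of that of Prrc2c, compared with a median of 11.9% (quartiles 0% and 37.0%) over genes with a shared interval, and none of the short 3′ UTR of Prrc2a. In replicate 2 alone, 39.5% of the Prrc2a 3′ UTR was covered.

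At the 5′ end it was Prrc2c that stood apart. The first exon held part of a shared interval in 32.2% of the genes with one, in Prrc2a and Prrc2b but not in Prrc2c, where neither replicate had a peak. Prrc2a exon 1 had fold enrichments of 1.56 (chr17:35164668-35164934) and 2.44, and Prrc2b exon 1 had 3.20 (chr2:32151017-32151291) and 1.54. The replicates gave opposite orders, with Prrc2b higher in replicate 1 and Prrc2a higher in replicate 2. These peaks reached past the annotated start of the representative transcript, and 163 nt and 144 nt of the intervals, all 5′ UTR, were within it. They were the most GC-rich intervals of their genes, with 77.3% in Prrc2a and 82.6% in Prrc2b. Antibodies against m6A also bind m6Am, a modified base next to the cap of many mRNAs, and the 2 marks cannot be told apart in these peaks.

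Between exon 16 and the last exon the replicates differed in all 3 genes. Prrc2a and Prrc2b had no peak there in replicate 1 and 3 each in replicate 2, over 45.1% and 31.6% of the bases. The Prrc2a peaks lay in exon 17 (1.61), exons 21 to 23 (1.96) and exons 25 and 26 (2.15), and the Prrc2b peaks in exon 18 (1.30), exon 19 (1.68) and exons 21 and 22 (2.22). Of these 6, the last was just above the median of the list, 2.2, and the others were below it. Prrc2c had the opposite pattern, with 3 peaks in replicate 1 and 1 in replicate 2. Its exon 19, of 841 nt, had a peak in both, with 4.15 (chr1:162697492-162698409) and 2.36 (chr1:162697523-162698273), above 79.1% and 57.7% of the lists, and exons 33 (1.74) and 34 (1.82) had a peak in replicate 1 alone. The shared exon 19 interval had 1 GGACT, the only one in a shared interval of Prrc2c.
Prrc2c, exon 19, A at chr1 position 162698186, minus strand: caagctactgGGACTcagcaaatcc

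**Figure D2:**
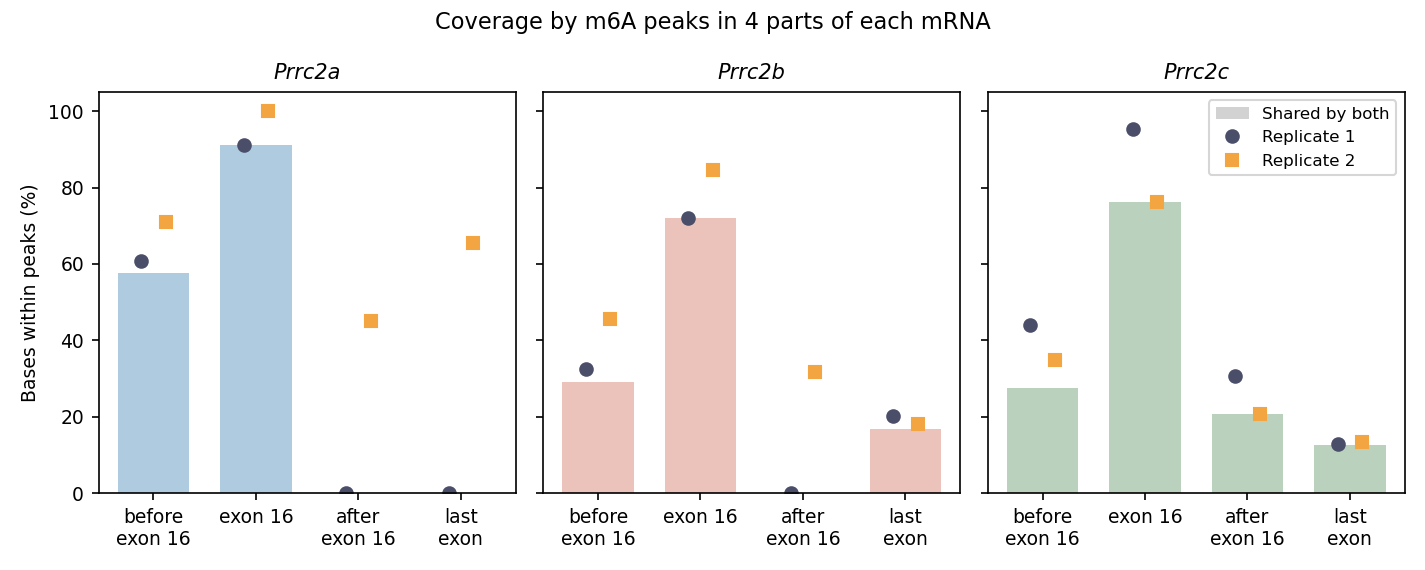
Percent of bases within peaks (y axis) in 4 sections of each mRNA (x axis), for replicate 1 (circles), replicate 2 (squares) and the bases shared by both (bars). Exon 16 is the highest section in each gene, from 72.1% to 91.0% shared, and the exons after it have no shared bases in Prrc2a and Prrc2b and 20.8% in Prrc2c.

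The remaining peaks lay in the run of shorter exons before exon 16. In Prrc2a, shared intervals were also present in exon 3 (1.73 in replicate 1 and 1.94 in replicate 2), in exons 4 and 5 (2.22 and 1.89), and in exons 7, 9, 10 and 11, which replicate 1 joined in a single peak at chr17:35159780-35161227. That peak had 4.43, against 3.03 for its replicate 2 counterpart in exons 10 and 11 (chr17:35159780-35160296), and this was the strongest matched pair of Prrc2a by the lower of both values. Replicate 2 divided the stretch, with weaker peaks of 1.89 (exons 4 to 7) and 1.64 (exon 9), and also had a peak in exon 2 with 1.63. The stretch held the other 2 GGACT of Prrc2a that fell in shared intervals, in exon 7 and at the end of exon 11, where the printed bases run on into exon 12.
Prrc2a, exon 7, A at chr17 position 35161122, minus strand: tggagggcccGGACTccaaacttca
Prrc2a, exon 11, A at chr17 position 35159787, minus strand: ggccccctggGGACTacccagatcg

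In Prrc2b, exons 9 (2.06 and 1.45) and 11 (2.11 and 1.89) had shared intervals, exon 10 (1.71) had a peak in replicate 1 alone, and exons 6 (1.5) and 13 (1.43) in replicate 2 alone. Exon 11 held the other GGACT of Prrc2b within a shared interval.
Prrc2b, exon 11, A at chr2 position 32200915, plus strand: aggaagggaaGGACTggagtggaac
In Prrc2c, exon 10 (2.44 and 2.96) and the neighbouring exon 11 (2.02 and 2.24) had shared intervals. The exon 11 peak was called at chr1:162713158-162713503 in each replicate with the same start and end, yet exon 11 of the representative transcript is 54 nt long and filled 15.6% of the peak. The peak reached 146 nt past exon 11 on each side. The full 346 nt are exonic in a transcript with a retained intron, and whether any signal came from that transcript was not tested. Peaks over other short exons also reached past them, as given with the matched pairs below. Peaks in 1 replicate alone were found in exons 3 (1.95), 4 (2.03) and 13 (2.25) for replicate 1 and in exon 14 (1.57) for replicate 2. In all, 7 of 7 replicate 1 peaks of Prrc2a, 9 of 10 of Prrc2b and 6 of 11 of Prrc2c overlapped a replicate 2 peak, and in the other direction 7 of 12, 7 of 12 and 6 of 7 did.

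All exons of 500 nt and over in the paralogs held part of a shared interval. Below 500 nt the share did not rise with exon length in the paralogs, whereas in all genes it did. Of exons of 1000 nt and over, 5 of 5 in the paralogs held part of a shared interval, against 83.8% over all genes with a shared interval. Below that and from 500 nt up it was 2 of 2, both in Prrc2c, against 65.9%. From 200 nt up to 500 nt it was 3 of 25 (12.0%) against 21.1%, and below 200 nt it was 12 of 66 (18.2%) against 7.43%. The last count fell to 7 (10.6%, against 6.93% in all genes) with overlap of at least 50% of both peaks and to 3 (4.55% against 2.89%) at a fold enrichment of at least 2. The share in short exons was above that of all genes mainly through Prrc2a, with 7 of 21, while 3 of 25 in Prrc2b and 2 of 20 in Prrc2c were nearer to it. A peak is at least 200 nt long, so a short exon within a peak is also covered where the signal comes from a neighbour, and this part was not tested. A longer exon also has more bases at which to meet an interval. Of the bases themselves, shared intervals covered 18.1% below 200 nt and 15.5% from 200 nt up to 500 nt. From 500 nt up to 1000 nt it was 93.5%, and 45.5% from there up. In all genes these shares were 6.99%, 17.4%, 38.1% and 23.5%. Exon numbers in the class of 500 nt and over are small in these genes, and their shares describe single exons.

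The strength of the peaks was similar in the 3 genes in replicate 1 and less so in replicate 2. Replicate 1 peaks had a mean log2 fold enrichment of 1.48 ± 0.75 in Prrc2a (SD over 7 peaks), 1.49 ± 0.58 in Prrc2b (10 peaks) and 1.45 ± 0.65 in Prrc2c (11 peaks). Replicate 2 peaks had 1.06 ± 0.29 (12 peaks), 0.89 ± 0.48 (12 peaks) and 1.42 ± 0.43 (7 peaks). The SD describes the spread between peaks of 1 mRNA and not an error between animals. In replicate 1 the means differed by far less than that spread, and in replicate 2 Prrc2c was highest. Prrc2b was lowest there over all peaks, but was above Prrc2a among peaks of fold enrichment of at least 2 (1.46 and 1.3), and weighting by exonic bases left them at 1.2 and 1.19. For the means of all genes with exonic peaks the medians were 1.5 (quartiles 1.19 and 1.83) in replicate 1 and 1.17 (0.92 and 1.46) in replicate 2. Thus all 3 paralogs were close to the typical gene in replicate 1, and Prrc2b was below the lower quartile in replicate 2. Linear values ran from 1.56 to 5.11 in Prrc2a, from 1.71 to 5.44 in Prrc2b and from 1.74 to 6.62 in Prrc2c for replicate 1, and from 1.61 to 3.03, from 1.30 to 4.01 and from 1.57 to 3.69 for replicate 2.

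Peaks that matched each other best in both replicates formed 6 pairs in Prrc2a, 7 in Prrc2b and 6 in Prrc2c. Fold enrichment was higher in replicate 1 in 3, 6 and 4 of them, together 13 of 19 (68.4%), compared with 77.9% of all 22457 matched pairs. The median ratio of replicate 1 over replicate 2 was 1.03 in Prrc2a, 1.42 in Prrc2b and 1.23 in Prrc2c, against 1.29 over all pairs. The pairs above 4 in replicate 1 all had a lower value in replicate 2, whereas pairs near 2 went either way. Since the former were picked by a high replicate 1 value, their lower replicate 2 value is not a trait of these genes. Borders coincided often. At least 1 border was identical to the base in 6 of 6 pairs of Prrc2a, 3 of 7 of Prrc2b and 2 of 6 of Prrc2c, together 11 of 19 (57.9%) against 18.9% of all pairs, and in 5 of these 11 pairs the identical border was also the border of an exon. In the others it lay outside an exon, farther for shorter exons. In Prrc2a it lay 22 nt off exon 3 (178 nt), 37 nt off exon 1 (163 nt) and 100 nt off exon 4 (100 nt). In Prrc2b it lay 7 nt off exon 11 (193 nt) and 60 nt off exon 9 (140 nt). In Prrc2c it lay 146 nt off exon 11 (54 nt). The identical borders thus went with the exons, and whether they reflect equal signal was not tested.

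**Figure D3:**
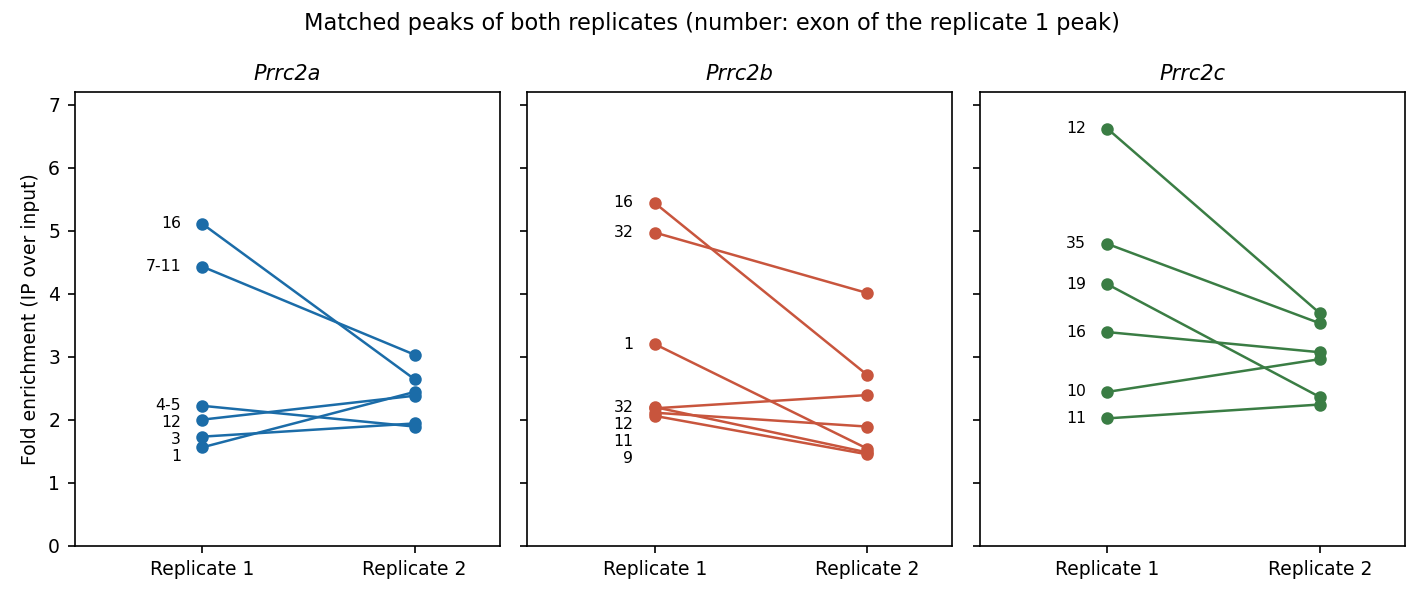
Fold enrichment of IP over input (y axis) of each matched peak in replicate 1 and replicate 2 (x axis), with a line per pair and the exon number of the replicate 1 peak at its left. The Prrc2b and Prrc2c peaks at the stop codon (exons 32 and 35) and Prrc2c exon 12 have the highest values in replicate 2, from 3.53 to 4.01.

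Position along the proteins was then compared through an alignment of the 3 encoded proteins, of 2158, 2230 and 2846 residues. Prrc2a and Prrc2b aligned over 1750 residues with 40% identity, Prrc2a and Prrc2c over 1946 with 37.8%, and Prrc2b and Prrc2c over 2062 with 40%. The codons of 1665 alignment columns were present in all 3 genes. Of these, 427 (25.6%) lay in shared intervals in all 3 genes, 200 (12.0%) in a pair of genes, 324 (19.5%) in a single gene and 714 (42.9%) in none. Of the aligned residues of Prrc2b whose codons were in a shared interval, 92.6% were in one in Prrc2a too, whereas 63.4% of those of Prrc2a were in Prrc2b, which mirrors the wider coverage of Prrc2a. Of those of Prrc2c, 76.0% were also covered in Prrc2a and 75.9% in Prrc2b. Codons of 1 exon and 1 interval go together, so these shares describe a small number of intervals, and no test was made on them.

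Most of the codons covered in all 3 genes came from exon 16. All aligned residues of Prrc2a exon 16 matched exon 16 of Prrc2b (500 residues) and of Prrc2c (532), and all of Prrc2b exon 16 matched that of Prrc2c (602), with identities of 40%, 40.8% and 36.9%. In the opposite direction the shares were 97.5%, 97.4% and 99.2%. Of 464 columns of exon 16 present in all 3 genes, 278 (59.9%) lay in shared intervals in all 3, 140 (30.2%) in a pair and 46 (9.91%) in a single gene, and none was outside the intervals of all 3 genes. The codons just ahead of the stop codon were in shared intervals in both Prrc2b and Prrc2c, at the right end of the plot of aligned codons.

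**Figure D4:**
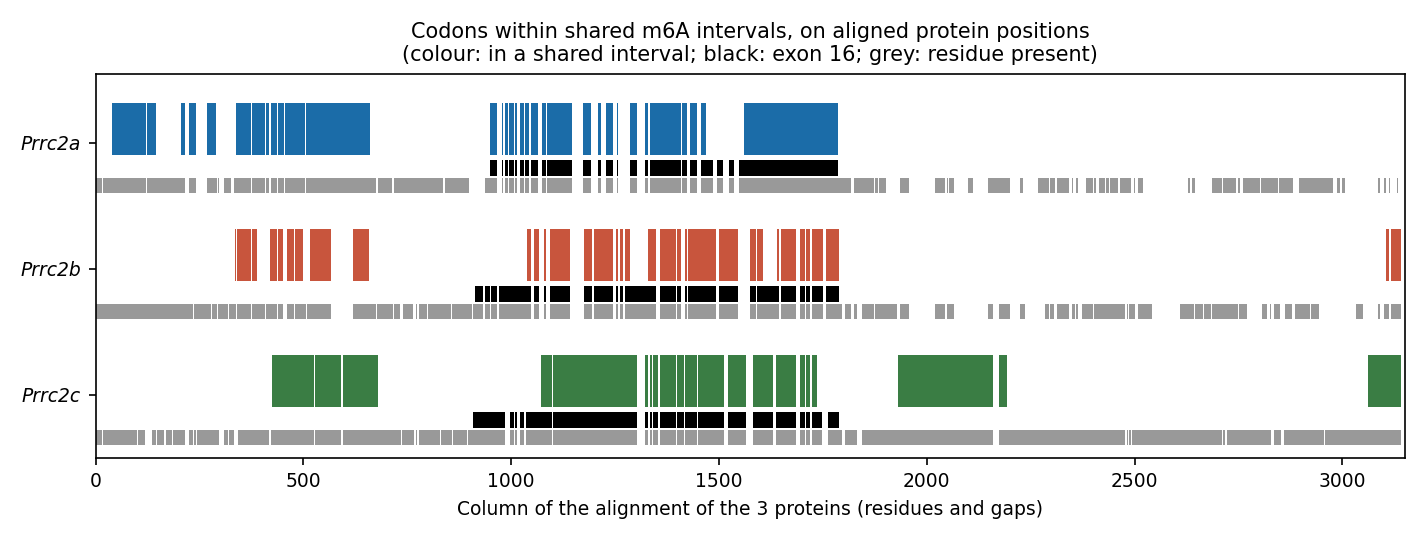
Codons within shared intervals (coloured) on the columns of the alignment of the 3 proteins (x axis), with exon 16 in black and the residues present in grey for each gene (rows). Coloured stretches of all 3 genes coincide over exon 16, where 278 of 464 columns are covered in all 3. Prrc2a alone has shared intervals near the N-terminus, where Prrc2c has replicate 1 peaks in exons 3 and 4 that replicate 2 lacks.

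Few GGAC sites stood at the same aligned position in another paralog. Only this core was compared in this way, and no expected share was computed. Of 101 GGAC in the 3 coding sequences, 14 had a GGAC at the same aligned codon position in another paralog, in 6 alignment columns, and none of the GGAC of exon 16 was among them. In 1 of these columns, in exon 9 of Prrc2a and Prrc2b, the sites lay in shared intervals of both genes. In 2 columns all 3 genes had GGAC, and neither column lay in a shared interval of any of the genes. The first is in exon 14, in no peak of either replicate, where Prrc2a and Prrc2b have GGACT and Prrc2c has GGAC followed by another base. The printed windows show how similar the surrounding bases are.
Prrc2a, exon 14, A at chr17 position 35157908, minus strand: ggccccctctGGACTtctaccctcc
Prrc2b, exon 14, A at chr2 position 32208806, plus strand: ggacgcccgtGGACTtctacccctc
Prrc2c, exon 14, A at chr1 position 162708873, minus strand: ggcctgctatGGACattccaccca
The other is in exon 6 of Prrc2a and Prrc2b and exon 5 of Prrc2c. It lay in a replicate 2 peak in Prrc2a and Prrc2b and in no peak in Prrc2c.
Prrc2a, exon 6, A at chr17 position 35161353, minus strand: gtctgggcccGGACcaagcctccg
Prrc2b, exon 6, A at chr2 position 32191633, plus strand: gtatgggccaGGACcaagcctccg
Prrc2c, exon 5, A at chr1 position 162720500, minus strand: ctatggacctGGACccagtttacg
A match is a run of letters and not a measured methylation site, since a peak is far longer than a site and does not resolve the methylated adenosine.

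GGACT was sparser inside the shared intervals of the paralogs than outside them, the reverse of what was seen over all mRNAs, although in the CDS alone this did not hold for Prrc2c. Prrc2a had 11 GGACT, 4 of them in shared intervals, which gives 1.24 per kb inside and 1.91 per kb outside. Prrc2b had 12 and 2 (0.691 and 1.29 per kb), and Prrc2c had 5 and 1 (0.279 and 0.505 per kb). The ratios of inside over outside were 0.648, 0.537 and 0.553, whereas over all mRNAs with a shared interval the densities were 1.61 and 0.981 per kb, a ratio of 1.65. These ratios rest on 4, 2 and 1 sites and were not tested. The direction held in some paralogs only with other motifs. The core GGAC gave ratios of 1.01 in Prrc2a, 1.49 in Prrc2b and 0.819 in Prrc2c (all mRNAs 1.58), so that Prrc2c alone stayed below 1. A wider set in which A was also allowed in place of either G (GGACT itself, then GAACT, then AGACT, then AAACT) gave 1.21, 0.967 and 0.845 (all mRNAs 1.24), so that Prrc2a alone was above 1. In the CDS of Prrc2c alone, where GGACT occurs at 2 places, the ratio was 1.47. Of the 28 GGACT in the 3 mRNAs, 15 were in no peak of either replicate, 7 were in peaks of both, 5 in replicate 2 alone and 1 in replicate 1 alone.

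**Figure D5:**
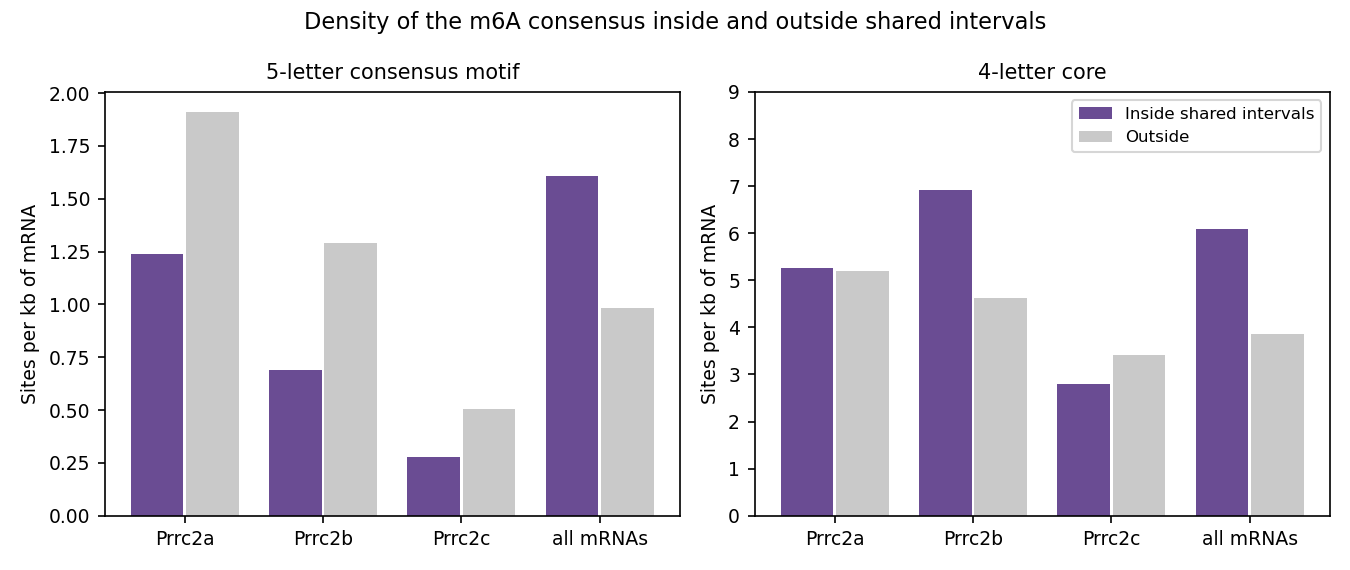
Sites per kb of mRNA (y axis) inside (purple) and outside (grey) shared intervals for the 5-letter consensus motif (left) and its 4-letter core (right), in each paralog and over all mRNAs with a shared interval (x axis). The 5-letter motif is sparser inside than outside in the 3 paralogs and denser inside over all mRNAs, while the core is denser inside in Prrc2b and over all mRNAs.

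Genes with related functions were set beside the family. Of 14 genes for proteins that bind m6A or methylated RNA, 11 had a shared interval, against 45.4% of all protein-coding genes, expressed or not. Median coverage was 15.4% of the mRNA over the 14. The 3 Igf2bp genes had no peak in either replicate, which does not show absence of the mark. Ythdf1 (66.9%), Ythdc1 (36.1%), Ythdf3 (35.7%) and Ythdf2 (32.7%), which carry the YTH domain that holds the methylated base, had more of their mRNA covered than Prrc2b and Prrc2c, and Ythdf1 had more than Prrc2a. Ythdc2, of the same domain family, had 2.54%. All 19 genes of large RNA-binding proteins of stress granules and translation had a shared interval, with a median coverage of 23.9%. In 9 of the 19 the stop codon lay in a shared interval, near the share of 51.4% over all genes with a shared interval. Within this list only Tnrc6c (52.3%), whose protein acts in silencing by microRNAs, exceeded Prrc2a in coverage. Eif3a (39.9%), Usp10 (37.7%) and Larp1 (36.9%) followed. The paralogs, with 27.1% to 46.9%, were all above the median of this list.

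Genes of similar mRNA length were then ranked by likeness to each paralog over 6 measures, namely the number of shared intervals, the coverage of the 5′ UTR, CDS and 3′ UTR, and the highest fold enrichment in each replicate. The 3 genes most like Prrc2a among 1396 were Ankhd1, Wnk2 and Ttbk1, at distances of 1.08, 1.2 and 1.3, where the median gene was at 4.19. Ankhd1 had 11 shared intervals, with 79.5% of the 5′ UTR, 38.9% of the CDS and none of the 3′ UTR covered, against 72.1%, 47.3% and none in Prrc2a. Among 408 genes, Ep300, Hivep2 and Nipbl were most like Prrc2b (1.19, 1.37 and 1.40, median 3.58). Among 304 genes, Crebbp, Celsr3 and Ino80d were most like Prrc2c (0.42, 0.47 and 0.75, median 2.67). Crebbp, the gene of a histone acetyltransferase, had 6 shared intervals as Prrc2c did, with none of the 5′ UTR, 44.6% of the CDS and 2.10% of the 3′ UTR covered, against none, 40.5% and 4.56% in Prrc2c, and highest fold enrichments of 6.04 and 3.8 against 6.62 and 3.69. For Wnk2 the annotation gives no 3′ UTR and for Celsr3 no 5′ UTR, and these were counted as not covered.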

How the data were processed

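According to the study's methods, the authors trimmed reads with Cutadapt and Trimmomatic, aligned them to mm10 with TopHat (TopHat2 2.0.9 in the submitters' processing notes), and called peaks with MACS2 for each IP replicate against its own input, keeping duplicate reads. Kept duplicates and low input coverage can raise the ratio. The deposited values were peak positions with a fold enrichment, which is the ratio, on a linear scale, of IP to input. Input samples enter only through this ratio.

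Positions were counted from 1 with both ends included (shortest peak 200 nt). Peaks were set against exons of all GENCODE M21 transcripts. Spliced positions used the transcript with the longest CDS, and sequences came from the GENCODE M21 transcripts (GRCm38, the assembly of mm10). Matched pairs were mutual best overlaps. Proteins were translated and aligned with MAFFT 7.526 (Python 3.11.15, NumPy 2.4.6, Biopython 1.88). Peak-to-mRNA projection was tested on simulated data. Described in full, by rule, were the strongest matched pair, and the peaks at the first exon, the stop codon and in the longest coding exon. Motif shares were taken over adjoining windows of equal length. The members, lists and measures were chosen with earlier results of these data known. No test was made between the paralogs, with 2 values for each. Alternatives are given in the closing section.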

Additional observations from a re-analysis of the deposited data

Results flagged for a closer look

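A Prrc2b peak outside all annotated exons was found in replicate 1 and entered no comparison. It lay in an intron at chr2:32170932-32171204 (273 nt), 11254 nt from the nearest exon, with a fold enrichment of 4.81, above 87.6% of the replicate 1 list. No replicate 2 peak overlapped it. Prrc2a and Prrc2c had no intronic peak in either replicate.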

How the results depend on the processing

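Of 100 alternative values for 20 results, 52 moved by less than the replicate spread (for counts, by less than 1.5 times), 44 moved more and 4 reversed, all of them ratios of motif density that crossed 1 (GGAC in Prrc2a and Prrc2b, the 4 motifs in Prrc2a, and CDS alone in Prrc2c). No paired analysis was possible because the replicate numbers join each IP to its own input within the ratio and there was a single group of peak lists. Depth was unknown, the number of called peaks can depend on it, and this was not tested. The cause of the moves below was not tested unless stated.

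With overlap of at least 50% of both peaks, which drops peaks that are long in 1 replicate and split in the other, Prrc2a had 4 shared intervals, and coverage was 26.5% in Prrc2a and 13.2% in Prrc2b. Short exons with a shared interval were then 7, the GGACT ratios of Prrc2a and Prrc2b 0.277 and 0.597, and the aligned residues covered in both genes 5.14% (Prrc2a and Prrc2b), 19.9% (Prrc2a and Prrc2c) and 8.87% (Prrc2b and Prrc2c). At a fold enrichment of at least 2, Prrc2a had 4 shared intervals, Prrc2b 5, short exons 3, and the GGACT ratio of Prrc2b was 0.348. Mean log2 fold enrichment then was 1.79 (Prrc2a, replicate 1), 1.3 and 1.46 (Prrc2a and Prrc2b, replicate 2), and 1.66 and 1.55 (Prrc2c, replicates 1 and 2), since weak peaks were left out. Medians were 1.15 (Prrc2a, replicate 1) and 1.17 and 1.57 (Prrc2c). Weighting by exonic bases gave 1.89 (Prrc2a, replicate 1) and 1.81 and 1.54 (Prrc2c), and shared peaks only gave 1.85 and 1.55 (Prrc2c). Over the union of all transcripts 24.1% of Prrc2c was covered. Requiring 50% of an exon left 3 of the 5 exons of 1000 nt and over, without the last exons of Prrc2b and Prrc2c. GGAC gave ratios of 1.01, 1.49 and 0.819 in Prrc2a, Prrc2b and Prrc2c, the set of 4 motifs with A allowed for either G, added after the data were seen, gave 1.21, 0.967 and 0.845, and CDS alone gave 0.586 in Prrc2b and 1.47 in Prrc2c.

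With 1 replicate in place of both, peak numbers ran from 7 to 12 (Prrc2a), 10 to 12 (Prrc2b) and 7 to 11 (Prrc2c), and coverage from 48.0% to 70.8%, 29.2% to 40.3% and 33.1% to 42%. Short exons with a peak ran from 18 to 22, exons of 1000 nt and over stayed at 5, and GGACT ratios ran from 0.618 to 0.721, 0.740 to 0.807 and 0.346 to 0.505. Aligned residues covered in both genes ran from 32.7% to 46.7% (Prrc2a and Prrc2b), 34.2% to 38.7% (Prrc2a and Prrc2c) and 29.7% to 36.6% (Prrc2b and Prrc2c). Prrc2a had the highest coverage of the whole mRNA with either replicate, but Prrc2c (31.2%) was above it with the 50% overlap. Over the CDS alone Prrc2c was above Prrc2a in replicate 1.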
